A study of Homo sapiens with 4 samples.

Results

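A group of 10 genes of the antiviral state, most of them interferon-inducible, was followed in RKO cells, a poorly differentiated human colon carcinoma line. They are the MX GTPases MX1 and MX2, viperin (RSAD2) with its neighbour CMPK2, the small membrane protein genes IFI6 and IFI27L1, the pair IFI44 and IFI44L, the apoptosis regulator XAF1 and the virus tether BST2. The genes were chosen by symbol with their values in these libraries already known, and all 10 were found among the 13092 genes listed in either table. RNA came from 1 sample overexpressing HADH-S, a nuclear form of the beta-oxidation enzyme hydroxyacyl-CoA dehydrogenase, and from 1 control sample labelled wild type. Vector, passage and time after transfer of the construct are not stated in the sources used here. Each condition has 1 library, which allows no test, and every difference below describes these 2 libraries. In bulk RNA, more cells that express a gene and more RNA per cell cannot be told apart.

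Type I and type III interferons bind receptors on the cell surface and activate transcription factors in the cell. These bind the interferon-stimulated response element (ISRE) near the start sites of many genes, many of which encode proteins that block a step of viral growth. MX proteins act on incoming viral nucleoprotein complexes or capsids, viperin makes a chain-terminating nucleotide, and BST2, also called tetherin, holds budding virions on the plasma membrane. Epithelial cells keep most of these genes at low levels until they sense a virus or an interferon.

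An ISRE core was found near the start sites of 6 of these genes, and the stretches that hold it are printed because the element is where interferon-activated transcription factors are known to bind. The core searched was GAAA, any 2 bases, then GAAA again, on both strands of RefSeq windows from 250 bases before to 50 bases after each start site (GRCh38.p14). Capitals mark each match, and on the printed strand a match to the opposite strand reads as TTTC, any 2 bases, TTTC.
IFI6, chr1:27672231-27672393, minus strand: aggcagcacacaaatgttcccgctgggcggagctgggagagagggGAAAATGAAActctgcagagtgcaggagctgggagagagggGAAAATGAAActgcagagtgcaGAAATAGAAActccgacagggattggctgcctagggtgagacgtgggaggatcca
IFI44L, chr1:78620239-78620429, plus strand: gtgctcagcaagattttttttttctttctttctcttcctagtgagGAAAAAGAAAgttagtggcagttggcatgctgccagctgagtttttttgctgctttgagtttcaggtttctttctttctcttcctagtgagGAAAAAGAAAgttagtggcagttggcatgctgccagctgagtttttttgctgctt
IFI44, chr1:78649726-78649825, plus strand: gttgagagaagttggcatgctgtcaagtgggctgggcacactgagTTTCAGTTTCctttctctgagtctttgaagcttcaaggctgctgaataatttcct
RSAD2, chr2:6877587-6877686, plus strand: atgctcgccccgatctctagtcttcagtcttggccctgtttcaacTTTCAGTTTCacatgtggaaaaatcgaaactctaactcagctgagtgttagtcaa
BST2, chr19:17405700-17405805, minus strand: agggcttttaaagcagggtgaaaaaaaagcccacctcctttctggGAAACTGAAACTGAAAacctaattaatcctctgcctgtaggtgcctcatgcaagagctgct
MX1, chr21:41420524-41420607, plus strand: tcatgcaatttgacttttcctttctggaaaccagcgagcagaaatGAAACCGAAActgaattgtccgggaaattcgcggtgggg

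Of the 9 members with a RefSeq promoter window, 6 held the core in at least 1 window, against 4.38% of the 27305 genes in the promoter table and 28 of the 47 other interferon-stimulated genes with a window (59.6%). The motif search used no expression value, but the members and the other interferon-stimulated genes were chosen with results of these libraries known. Genes also differ in their number of windows, with 16 for the 9 members and 35116 for the 27305 genes. IFI6 carried 3 copies, from 156, 115 and 93 bases before its start site. The first and second of them lie in a stretch of 29 identical bases repeated 41 bases apart. IFI44L carried 2 copies inside an identical stretch of 85 bases that recurs after 91 bases. In BST2 the 2 matches overlap by 4 bases, and in MX1, with matches in 2 of its 3 windows, that of the first window lies 11 to 20 bases after the start site. CMPK2, IFI27L1 and XAF1 had no exact match in their windows. With 1 mismatch allowed, 8 of the 9 members matched, but so did 37.7% of all genes, and IFI27L1 was the member that did not. When a C had to follow the core, BST2, IFI44, IFI6 and MX1 matched, and 0.952% of all genes did.

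**Figure D1:**
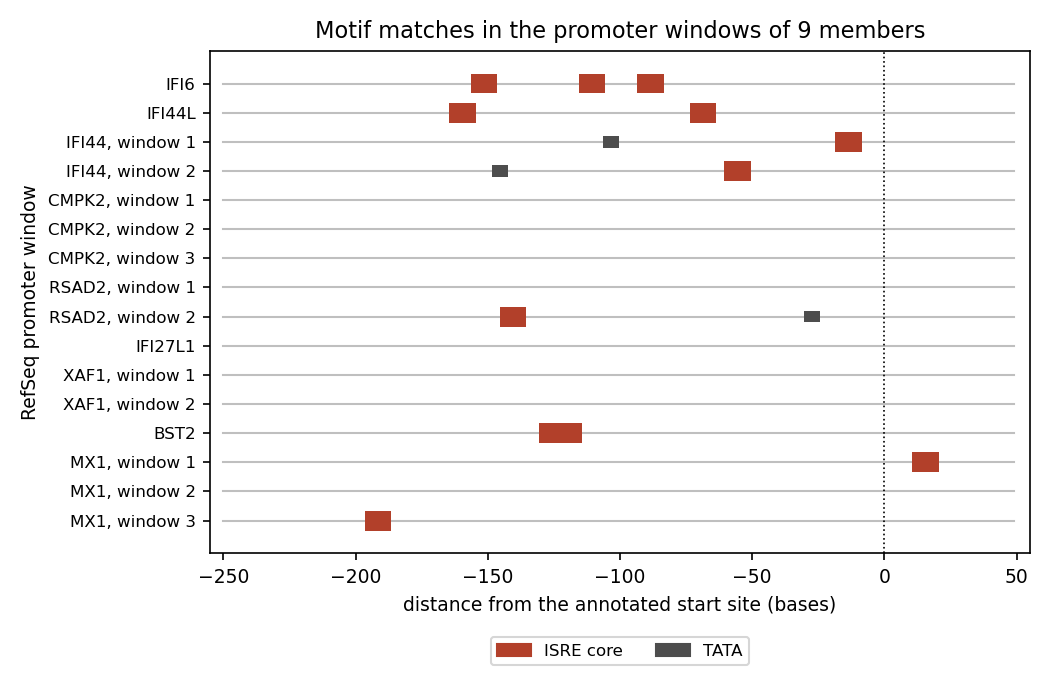
Positions of motif matches in the RefSeq promoter windows of 9 members, as distance in bases from the annotated start site (dotted line), with 1 row per window. Red boxes are the ISRE core and dark boxes are TATA; IFI6 holds 3 red boxes, and IFI27L1, XAF1 and CMPK2 hold none.

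The TATA element TATAAA was present in IFI44 and RSAD2, 2 of the 9 members with a window, against 14.0% of all genes. In IFI44 it began 106 bases before the start site of the first window and 148 bases before that of the second. In RSAD2 it began 30 bases before the start site of the second window, the one that also holds the ISRE core. Base composition differed widely among the 16 member windows, with a GC content from 32.7% to 75.7%, while the median of all windows was 58.7%. A match describes letters in a window and does not show that a factor binds there.

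The library of HADH-S cells held 6963608 reads assigned to genes and the control library held 6773421. HADH was at 54.4 RPKM (reads assigned to a gene, scaled to transcript length and library size) in the library whose label gives overexpression of HADH-S, against 26.5 RPKM in control cells. That is a ratio of 2.05 with a 95% counting interval of 1.79 to 2.35, which has the direction of the label. Counting intervals come from the whole reads recovered from RPKM and cover counting error only. The log ratios of 10330 genes had a spread 1.71 times that from counting alone, which makes the intervals too narrow for a difference between cultures. Among epithelial markers, KRT18 was at 93.8 RPKM in HADH-S cells and 91.7 RPKM in control cells and EPCAM at 9.57 RPKM in HADH-S cells against 8.20 RPKM in control cells, while KRT19, CDH1 and ESRP1 were not listed in either table. Defining markers of leukocytes such as PTPRC, CD3E and CD14 were not listed either. Of 12 leukocyte markers, CD68, LCP1 and CORO1A were listed, with summed levels of 707 RPKM in HADH-S cells and 646 RPKM in control cells, and their part in the results was not tested. They did not go one way: CD68 was at 478 RPKM in HADH-S cells and 389 RPKM in control cells (interval of the ratio 1.18 to 1.28), LCP1 at 222 RPKM in HADH-S cells and 249 RPKM in control cells (interval 0.861 to 0.924), and CORO1A at 6.85 RPKM in HADH-S cells and 7.45 RPKM in control cells (interval 0.677 to 1.25).

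All 10 members had a higher RPKM in HADH-S cells than in the control, as did 52% of all listed genes. A gene was counted as higher when the log2 value, log2 of (RPKM + 1) in HADH-S cells over (RPKM + 1) in control cells, reached 1, provided that its mean RPKM was 1 or more. By this rule of size, 6 of the 8 members that reached that mean were higher, namely IFI6, RSAD2, IFI44, IFI27L1, MX2 and MX1, and 0 were lower. The rule called 0.3% of the 10331 evaluated genes higher and 0.0484% lower. The counting interval of the ratio lay above 1 for 9 of the 10 members, the exception being XAF1, and for 11.5% of all listed genes. Since the members were picked with these ratios known, the counts are a description and support nothing further. RSAD2, IFI44 and MX2 were below 1 RPKM in control cells and reached the mean through the HADH-S library, and XAF1 and IFI44L did not reach it. The median log2 value of the 8 members was 1.56, that of all evaluated genes 0.01.

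**Figure D2:**
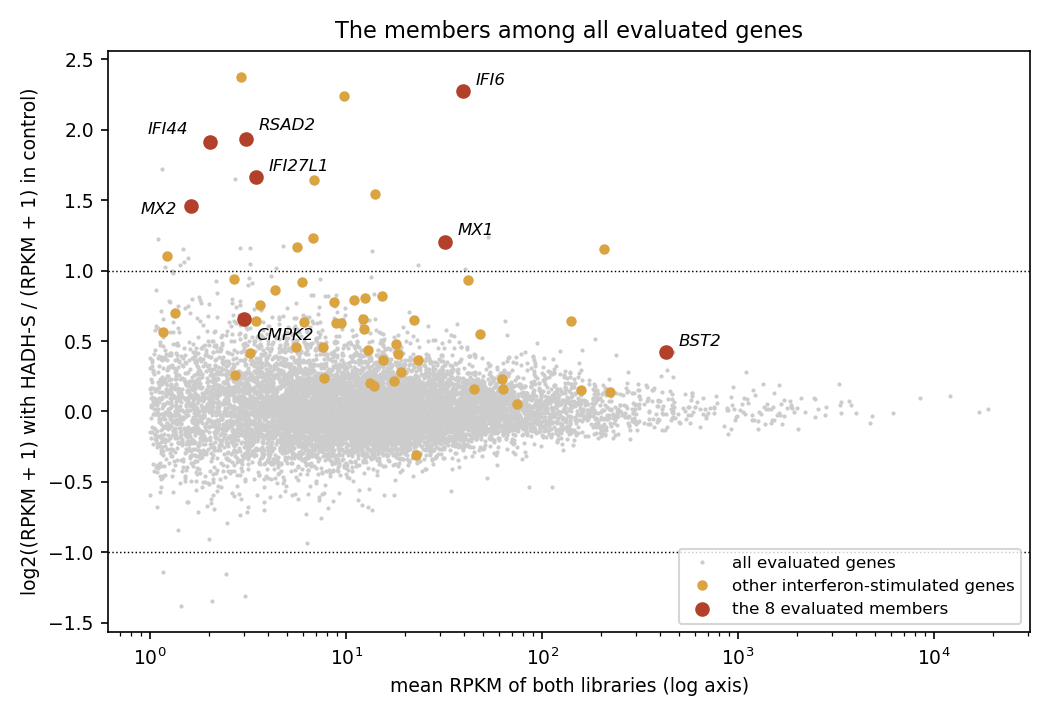
Each point is an evaluated gene, with its mean RPKM of both libraries on the x axis (log scale) and its log2 value, computed from RPKM + 1 in HADH-S cells over control cells, on the y axis; dotted lines mark 1 and -1. Of the 8 members (red), 6 lie above the upper line, CMPK2 and BST2 lie between the lines, and 48 of the 49 other interferon-stimulated genes (yellow) lie above 0.

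MX1 and MX2 are dynamin-like GTPases that lie next to each other on chromosome 21, 11164 bases apart in GRCh38.p14. MX2 (ENSG00000183486, 41362027 to 41409393) comes first along the chromosome and MX1 (ENSG00000157601, 41420558 to 41459214) second. MX1, which blocks influenza and other RNA viruses in the cytoplasm, had 1087 reads and 45.0 RPKM in HADH-S cells, against 445 reads and 18.9 RPKM in control cells. MX2, which sits at nuclear pores and restricts HIV capsids, had 67 reads and 2.82 RPKM in HADH-S cells, against 9 reads and 0.390 RPKM in control cells. The ratio was 2.38 for MX1 (interval 2.13 to 2.66) and 7.24 for MX2 (interval 3.60 to 16.5). The ratio of MX2 was 3.05 times that of MX1 (counting interval 1.495 to 7.01). MX1 was the main MX transcript in both libraries, at 15.9 times the level of MX2 in HADH-S cells (interval 12.4 to 20.7) and 48.6 times in control cells (interval 25.4 to 107). The coding sequences span 662 codons for MX1 and 715 for MX2, and reads in stretches that the paralogs share may be divided uncertainly. Among the 1961 evaluated genes with at least as many reads as MX1, none had a larger ratio. MX1 was picked with its ratio known, so this rank is a description only.

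RSAD2 and CMPK2 start next to each other on chromosome 2, CMPK2 (ENSG00000134326, 6840553 to 6866635) on the minus strand and RSAD2 (ENSG00000134321, 6865885 to 6898239) on the plus strand. RSAD2 encodes viperin, a radical SAM enzyme that turns CTP into a nucleotide which ends viral RNA chains. It had 130 reads and 5.48 RPKM in HADH-S cells, against 16 reads and 0.693 RPKM in control cells, a ratio of 7.90 (interval 4.69 to 14.2). CMPK2, a mitochondrial nucleoside monophosphate kinase that phosphorylates CMP and UMP, had 78 reads and 3.88 RPKM in HADH-S cells, against 41 reads and 2.10 RPKM in control cells, a ratio of 1.85 (interval 1.25 to 2.77). The order of the 2 genes differed between libraries. With HADH-S, RSAD2 was at 1.41 times the level of CMPK2 (interval 1.06 to 1.89), and in the control at 0.330 times (interval 0.173 to 0.602). The ratio of RSAD2 was 4.27 times that of CMPK2 (counting interval 2.16 to 8.68). The annotated genes overlap by 751 bases, and whether the authors counted by strand is not stated in the sources used here, so reads from the overlap cannot be told apart. The ISRE core of RSAD2 printed above lies outside the overlap, upstream of its second annotated start site.

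IFI6 belongs with IFI27, IFI27L1 and IFI27L2 to a family of small hydrophobic proteins. IFI6 (ENSG00000126709, 27666064 to 27672192) lies on chromosome 1 and IFI27L1 (ENSG00000165948, 94081310 to 94102709) on chromosome 14. IFI6 sits in the endoplasmic reticulum and protects against flaviviruses. It had 380 reads and 66.4 RPKM in HADH-S cells, against 72 reads and 12.9 RPKM in control cells, a ratio of 5.13 (interval 3.98 to 6.70). Its log2 value of 2.27 ranked 2nd among the 10331 evaluated genes. By level it was the 1086th of 12612 listed genes in HADH-S cells and the 4993rd of 12501 in the control. IFI27L1 had 26 reads and 5.77 RPKM in HADH-S cells, against 5 reads and 1.14 RPKM in control cells, a ratio of 5.06 (interval 1.91 to 16.9). IFI6 was 11.5 times as high as IFI27L1 in HADH-S cells and 11.3 times in the control, so their ratios could not be told apart (ratio of ratios 1.01, interval 0.295 to 2.81).

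The other family genes differed less. IFI27, at 57.2 RPKM in HADH-S cells and 38.7 RPKM in control cells, had a ratio of 1.48 (interval 1.23 to 1.79). IFI27L2, at 93.9 RPKM in HADH-S cells and 73.7 RPKM in control cells, had a ratio of 1.28 (interval 1.07 to 1.52). The ratio of IFI27L1 was 3.42 times that of IFI27 (interval 1.26 to 11.6), although the genes lie 3185 bases apart on chromosome 14. IFI6 stood at 1.16 times the level of IFI27 in HADH-S cells (interval 0.993 to 1.36) and at 0.334 times in control cells (interval 0.251 to 0.441).

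IFI44 (ENSG00000137965, 78649789 to 78664078) and IFI44L (ENSG00000137959, 78620448 to 78646145) are neighbours on chromosome 1, separated by 3643 bases. Both are interferon-induced and had few reads in control cells. IFI44 had 44 reads and 3.76 RPKM in HADH-S cells, against 3 reads and 0.263 RPKM in control cells, a ratio of 14.3 whose interval runs from 4.57 to 71.8. IFI44L had 7 reads and 0.172 RPKM in HADH-S cells and was not listed in the control, which was taken as 0 reads. Its level in HADH-S cells was 2.27 times that of 3 reads in the control library, 0.0760 RPKM. The counting interval of the ratio, which also covers the counting error of the 7 reads, has a lower bound of 1.40. That bound leaves out differences between cultures. Presence in 1 library only was common, with 591 genes listed only in the HADH-S library and 480 only in the control library. The IFI44L transcript of 5829 bases is the longest of the 10, so 7 reads give a low RPKM. The windows of the pair share a run of 13 identical bases and each holds the ISRE core.

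XAF1 and BST2 lie towards opposite ends of the range of levels. XAF1 (ENSG00000132530, 6755447 to 6775647) is on chromosome 17 and BST2 (ENSG00000130303, 17402939 to 17405630) on chromosome 19. XAF1, which binds XIAP and relieves its block on caspases, had 8 reads and 0.336 RPKM in HADH-S cells, against 2 reads and 0.0864 RPKM in control cells. Its ratio of 3.89 has an interval from 0.776 to 37.6 and includes 1, so a difference was not detectable at this depth. BST2 had 3428 reads and 492 RPKM in HADH-S cells, against 2486 reads and 367 RPKM in control cells. The ratio was 1.34 (interval 1.27 to 1.41), the smallest among the 9 members with reads in both libraries. Among the 285 evaluated genes with at least as many reads as BST2, none had a larger ratio, and 95% of them lay between 0.878 and 1.14. BST2 was picked with its ratio known, so this rank is a description only. By the same count, itself included, CMPK2 was matched or exceeded by 31 of 9177 genes and IFI27L1 by 7 of 10216. For XAF1, 13 of 10323 genes had a ratio at least as large. By level BST2 was the 114th gene in HADH-S cells and the 156th in the control.

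**Figure D3:**
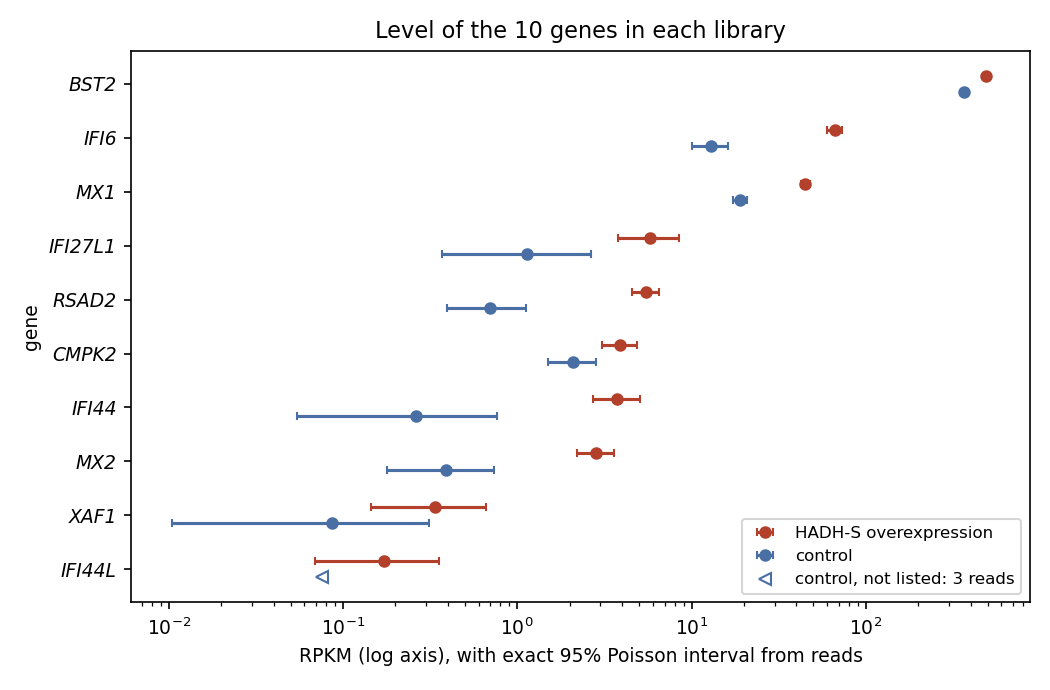
RPKM of each of the 10 genes on a log axis in the HADH-S library (red, upper point) and the control library (blue, lower point), with exact 95% Poisson intervals from the recovered reads. The open triangle marks 3 reads for IFI44L, which was not listed in the control; BST2 is at 492 RPKM in HADH-S cells and 367 RPKM in control cells, and XAF1 and IFI44L lie below 0.4 RPKM in both libraries.

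Levels per length put the 10 genes in an order that differed between the libraries. With HADH-S the order from high to low was BST2, IFI6, MX1, IFI27L1, RSAD2, CMPK2, IFI44, MX2, XAF1 and IFI44L. Of its neighbouring pairs, the counting intervals could not separate IFI27L1 from RSAD2, CMPK2 from IFI44, IFI44 from MX2 and XAF1 from IFI44L. In the control the order was BST2, MX1, IFI6, CMPK2, IFI27L1, RSAD2, MX2, IFI44, XAF1 and IFI44L, and only the steps from BST2 to MX1, MX1 to IFI6 and IFI6 to CMPK2 exceeded counting error. IFI6 was thus above MX1 in HADH-S cells, at 1.48 times its level (interval 1.31 to 1.66), and below it in the control, at 0.683 times (interval 0.525 to 0.878).

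Summed over the 10 genes, the level was 625 RPKM in HADH-S cells and 403 RPKM in control cells. BST2 made up 78.6% of that sum in HADH-S cells and 90.9% in the control. It also accounted for 56.3% of the summed difference, followed by IFI6 with 24.1% and MX1 with 11.7%. Without BST2 the sum was 134 RPKM in HADH-S cells and 36.5 RPKM in control cells, a ratio of 3.66. RSAD2, IFI44 and MX2, with ratios above 7, together stayed below the level of MX1 in each library. Ratio and level did not go together throughout. In HADH-S cells BST2, with a ratio of 1.34, was at 492 RPKM and IFI44, with a ratio of 14.3, at 3.76 RPKM. IFI6 and CMPK2 were ordered alike by both, IFI6 with a ratio of 5.13 at 66.4 RPKM and CMPK2 with 1.85 at 3.88 RPKM.

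**Figure D4:**
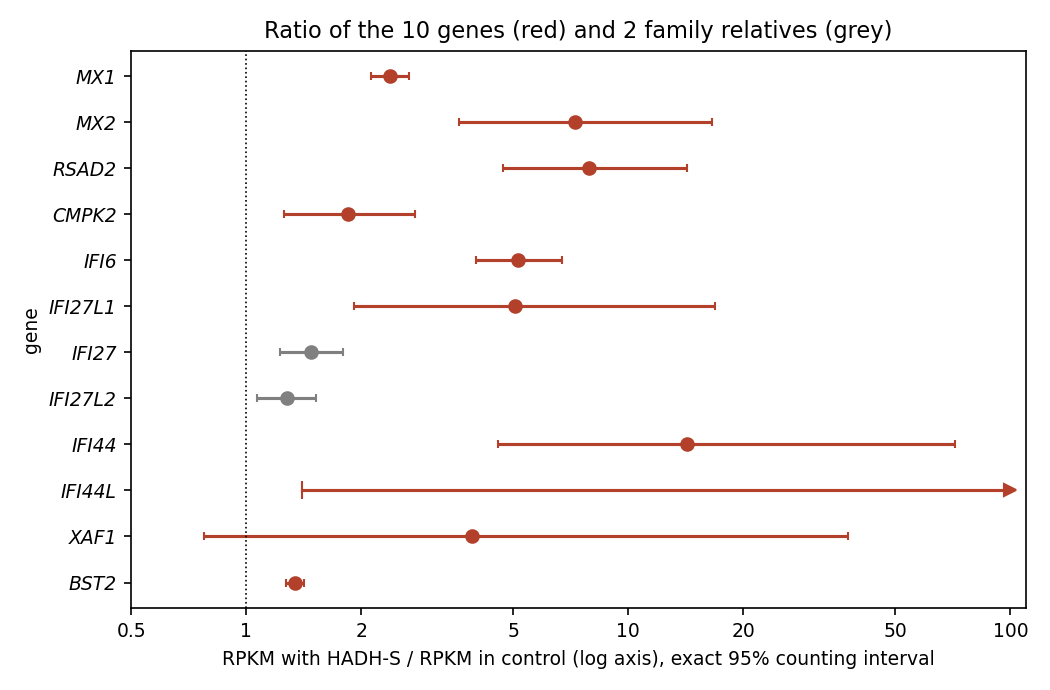
Ratio of RPKM in HADH-S cells to that in control cells for the 10 genes (red) and for IFI27 and IFI27L2 (grey), on a log axis with exact 95% counting intervals; the dotted line marks 1. XAF1 is the only gene whose interval includes 1, IFI44L has a lower bound of 1.40 and no upper bound, and BST2 has the narrowest interval, 1.27 to 1.41.

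Genes flanking the members were examined to see whether whole loci differed. Up to 2 evaluated genes on each side within 500 kb gave 19 neighbours, with ratios from 0.821 to 1.79 and a median of 1.08. By the rule of size 0 of them were higher, beside 0.3% of all evaluated genes. The counting interval was above 1 for 6 of these 19 and below 1 for 1, while it lay above 1 for 13.8% of the evaluated genes and below 1 for 11.6%. IFI27 and IFI27L2, family relatives of IFI27L1, are among these 6. No evaluated neighbour was found for the pair of IFI44L and IFI44, nor on the CMPK2 side of CMPK2 and RSAD2, so those flanks were not examined. On chromosome 21, BACE2 on one side of the MX pair had a ratio of 1.03 (interval 0.886 to 1.19) and PRDM15 on the other side 0.883 (interval 0.655 to 1.19). RNF144A, beyond RSAD2, had a ratio of 0.821 (interval 0.648 to 1.04). Beside IFI27L1, the helicase gene DDX24 lies 108 bases away and had a ratio of 1.08 (interval 1.02 to 1.16), so the ratio of IFI27L1 was 4.67 times as large (interval 1.76 to 15.6). At the XAF1 and BST2 loci some neighbours could not be set apart from the member. The largest neighbour ratio was that of SLC16A13, 260368 bases beyond XAF1, at 3.66 RPKM in HADH-S cells and 2.05 RPKM in control cells (ratio 1.79, interval 1.08 to 3.04). RNASEK, on the same side of XAF1, had a ratio of 1.22 (interval 1.10 to 1.35), and both ratios lie inside the wide interval of XAF1. MVB12A, a component of the ESCRT-I sorting complex whose annotated span begins 111 bases from the start site of BST2, was at 28.4 RPKM in HADH-S cells and 22.0 RPKM in control cells. Its ratio of 1.29 (interval 1.06 to 1.57) could not be separated from that of BST2, with a ratio of ratios of 1.04 (interval 0.848 to 1.27). The stretch of the BST2 promoter printed above extends over the first bases of MVB12A, and its ISRE matches lie inside the annotated span of MVB12A.

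**Figure D5:**
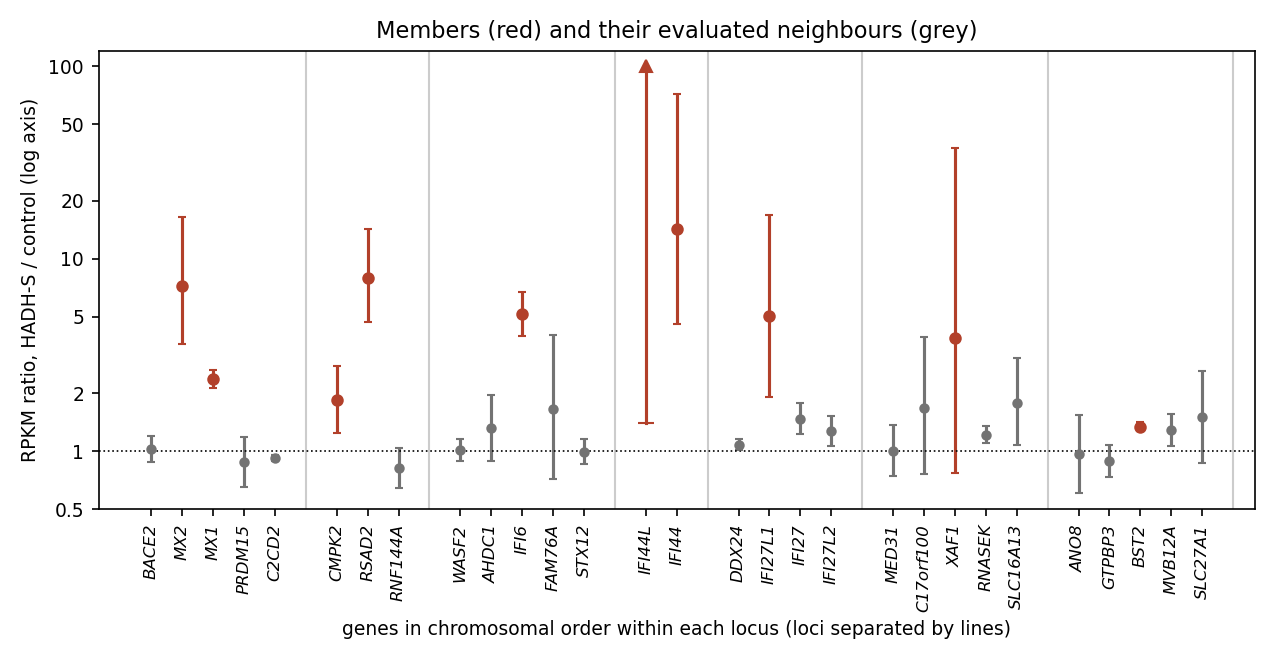
Ratio of RPKM in HADH-S cells to that in control cells (log axis, exact 95% counting intervals) for the members (red) and their evaluated neighbours within 500 kb (grey), in chromosomal order within each locus. No neighbour ratio exceeds 1.79, and at the BST2 locus MVB12A, at 1.29, lies close to BST2, at 1.34. The locus of IFI44L and IFI44 has no evaluated neighbour.

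The members were set beside 58 other interferon-stimulated genes, of which 56 were listed and 49 were evaluated. By the rule of size 8 of the 49 were higher and 0 were lower, beside 0.3% and 0.0484% of all evaluated genes. For 43 of the 49 the counting interval was above 1, and for 1 it was below, which was NMI. Among all evaluated genes it was above 1 for 13.8% and below for 11.6%. The median log2 value of the 49 was 0.63. OAS1 and OAS2, both among the 8, were below 1 RPKM in control cells and reached the mean through the HADH-S library. OAS1 had 65 reads in HADH-S cells and 3 in control cells (interval of the ratio 6.90 to 105). OAS2 was at 2.02 RPKM in HADH-S cells and 0.406 RPKM in control cells. The list of other interferon-stimulated genes was drawn up with results of these libraries known. The genes with the largest log2 values were OAS1, which makes the activator of RNase L, at 5.54 RPKM in HADH-S cells and 0.263 RPKM in control cells, IFIT1, which binds viral RNA lacking the cap marks of the host, at 16.7 RPKM in HADH-S cells against 2.75 RPKM in control cells, and IFITM1, which impedes viral entry, at 10.9 RPKM in HADH-S cells against 2.80 RPKM in control cells. MX1, IFI6 and RSAD2 thus stood beside genes of other antiviral families, and BST2, with its log2 value of 0.42, lay below the list's median. Of 22 interferon genes, IFNB1 had 2 reads and IFNE had 4 reads in HADH-S cells, and neither was listed in the control. The remaining 20 were not listed in either table. The counting intervals of the ratio start at 0.183 for IFNB1 and 0.642 for IFNE, so a difference was not detectable at this depth. Among all genes, 591 were listed in the HADH-S library only and 480 in the control library only.

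Genes that share a protein fold or a reaction with the members had median log2 values near 0, with single genes on either side. None of the 10 evaluated members of the wider dynamin superfamily was higher or lower by the rule of size, and their median log2 value was 0.00. That rule called 0.3% of all evaluated genes higher and 0.0484% lower, so few such calls would be found in any short list. MFN1, which fuses mitochondria, was at 22.3 RPKM in HADH-S cells and 19.4 RPKM in control cells (ratio 1.15, interval 1.03 to 1.27). OPA1, which fuses the inner mitochondrial membrane and was named after its values were seen, went the other way, with 1538 reads in HADH-S cells and 1679 in control cells (ratio 0.891, interval 0.831 to 0.955). The largest absolute log2 value was that of ATL1, an atlastin that fuses membranes of the endoplasmic reticulum, with 20 reads in HADH-S cells and 31 in control cells (ratio 0.628, interval 0.339 to 1.14). Among 17 genes of CTP supply and nucleotide phosphorylation, which provide and use the substrates of viperin and CMPK2, the median was -0.01. By the rule of size 0 were higher, beside the same 0.3%. Of their counting intervals, 1 was above 1 and 2 were below, beside 13.8% above and 11.6% below among all evaluated genes. The one above belonged to NME2, a nucleoside diphosphate kinase, at 18.1 RPKM in HADH-S cells and 12.8 RPKM in control cells (ratio 1.41, interval 1.04 to 1.92), whose reads may be divided uncertainly with its close paralog NME1. CMPK1, the cytosolic counterpart of CMPK2, picked once its values had been seen, was at 77.2 RPKM in HADH-S cells against 83.6 RPKM in control cells (ratio 0.923, interval 0.861 to 0.990). The cytosolic machinery that inserts iron-sulfur clusters, on which viperin depends, had a median of 0.00 over 9 genes. Of these 9, 3 had a counting interval above 1 and 1 below, beside the same 13.8% above and 11.6% below. NDOR1, an electron donor of this machinery, had a ratio of 1.28 (interval 1.06 to 1.55) and CIAO2A, which serves iron regulatory protein 1, one of 0.830 (interval 0.722 to 0.953).

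Partners of XAF1 and MX2 stayed within the rule of size, which called 0.3% of all evaluated genes higher and 0.0484% lower. Of 9 evaluated inhibitors of apoptosis and their targets, 0 passed the rule of size and the median log2 value was 0.09. Their counting intervals lay above 1 for 1 gene and below 1 for 2, beside 13.8% and 11.6% of all evaluated genes. XIAP, the protein that XAF1 binds, was at 8.54 RPKM in HADH-S cells and 9.92 RPKM in control cells (ratio 0.861, interval 0.763 to 0.972). A further 9 nuclear pore, import and capsid-binding genes linked to MX2 had a median of -0.07, with 0 counting intervals above 1 and 3 below, beside 13.8% above and 11.6% below among all evaluated genes. RANBP2, a pore filament protein, was at 34.4 RPKM in HADH-S cells and 40.5 RPKM in control cells (ratio 0.850, interval 0.807 to 0.894). Other factors that restrict retroviruses had a median of 0.18 over 11 evaluated genes, ZC3HAV1 of the interferon list included, 5 of them with an interval above 1 and 0 with one below, against the same background. The largest log2 value among them belonged to SAMHD1, which depletes deoxynucleotides, at 19.3 RPKM in HADH-S cells and 14.0 RPKM in control cells (ratio 1.38, interval 1.23 to 1.55).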

How the data were processed

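For each RNA library the authors deposited a table of RPKM per gene, per the file headers. Rows name a symbol, Ensembl gene and transcript, coding bounds and transcript length. Per the submitters' processing notes, shared by all samples, fastp 0.23.2, SAMtools 1.9 and GRCh38 were used; the RNA aligner, counter, strand setting and annotation release are not stated in the sources used here. RPKM multiplied by length was a whole multiple of 1 step per library for 100% of values within 0.01 reads, which gave reads. Genes missing from 1 table were taken as 0 reads there. Log2 values used a pseudocount of 1 and understate low genes. Ratios carry exact conditional (Clopper-Pearson) 95% intervals, ratios of ratios the conditional odds ratio interval (SciPy 1.17.1, pandas 2.3.3, Python 3.11.15). Both cover counting error only, since reads lacking molecular identifiers need not be independent.

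The members and lists were chosen with earlier results of these data known. Named genes were the 10 members, HADH and, from each list, up to 3 evaluated genes with the largest absolute log2 value; neighbours were taken by position. CMPK1, OPA1, NMI, ZC3HAV1, IFNB1 and IFNE fall outside this rule and were named after their values were seen, as were markers not listed in either table. Promoters and coordinates are from RefSeq (GRCh38.p14); MX2 had no promoter entry. Steps were tested on simulated reads. The chromatin immunoprecipitation and input samples were not analysed here. Alternatives were other pseudocounts, rescalings, filters on low values, a fold of 1.5, 99% intervals and other motif definitions.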

Additional observations from a re-analysis of the deposited data

How the results depend on the processing

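No paired analysis was possible because each condition had 1 library, and no replicate could be left out. Of the alternatives, the pseudocount, the filter on low values and the fold moved results. With a pseudocount of 5 the members past the rule of size fell to 2 of 8, their median log2 value to 0.77 and the other interferon-stimulated genes past the rule to 5, and with a pseudocount of 0.1 the members' median was 2.30; a larger pseudocount shrinks low genes by construction. At a mean RPKM of at least 5, which kept 3 members, 2 passed the rule of size and 3 had an interval above 1. At least 50 reads over both libraries, an alternative chosen after seeing the data, moved no result by more than 1.5 times. Over the alternatives the log2 value ran from 1.99 to 2.35 for IFI6, 1.06 to 1.24 for MX1 and 0.40 to 0.42 for BST2, and from 0.73 to 3.41 for IFI44 and 0.07 to 1.23 for XAF1. At a fold of 1.5, 26 of the 49 evaluated other interferon-stimulated genes passed the rule, against 8 at the fold used. The share of all evaluated genes that passed under these alternatives is not given here, so the counts have no background. Rescaling the libraries changed no count beyond 1.5 times. Members below 1 RPKM in the control rest on 16 reads or fewer there, and protein identities were not computed.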
